A study of Bos taurus with 6 samples.

Results

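Lipoprotein lipase (LPL, ENSBTAG00000012855), the fatty acid translocase CD36 (ENSBTAG00000017866) and the muscle and heart form of the fatty acid binding proteins (FABP3, ENSBTAG00000016819) were followed in the longissimus dorsi of male Korean cattle. They were chosen by Ensembl ID, and these 3 genes are taken from 24616 gene rows per library. Poly(A) RNA of 6 Hanwoo animals was sequenced with 1 library per animal. The 3 bulls (Bull 20, Bull 22 and Bull 23), which are intact males, were each sampled at 746 days of age. The 3 steers, which are castrated males, were sampled at 996 days (Steer 439), 950 days (Steer 456) and 930 days (Steer 458). All 3 steers were older than the bulls, and the effect of castration cannot be told apart from that of age in this design. The labels give no age at castration and no feeding regime. The comparison addresses whether genes of fatty acid uptake differ between the muscle of intact and castrated males.

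The 3 genes stand at successive steps of one route. LPL is secreted, is held at the inner wall of capillaries and splits the triglyceride of circulating lipoproteins into free fatty acids. CD36 is a membrane glycoprotein that binds long-chain fatty acids and promotes their entry into the cell. FABP3 carries fatty acids through the cytosol of muscle fibres, to oxidation in the mitochondria or to storage. Muscle fibres are a known site of all 3, while adipocytes also make LPL and CD36, and capillary endothelium also carries CD36. In a whole piece of muscle, fewer cells of a type and less RNA per cell cannot be told apart.

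Levels are given as reads per 1000000 gene reads of the library (CPM), with means ± SD over the 3 animals of a group. The gene reads numbered between 17027226 and 27490776 per library. The members had between 1894 and 10101 reads in any library, so the counting error of a single value was at most 2.30% of it. Together they took between 0.0470% and 0.0753% of the gene reads, with 0.0623% ± 0.0125 for the bulls and 0.0566% ± 0.0161 for the steers (SD, n = 3; exact 2-sided permutation p = 0.8). Some steer libraries stood apart. That of Steer 456 held 628 tested genes at a level at least 2-fold above that of any other animal, against 12 to 42 such genes per library elsewhere. Genes at least 2-fold below every other animal numbered 238 in Steer 456, 227 in Steer 458 and 23 to 55 per library elsewhere. Steer 439 had 16.9% of its counted lines in alignments to several places, against 24.5% to 28.2% in the others. Values without single steers are given below where they moved a result, and the part of these library features in the results was not tested. Markers of fibre types, adipocytes, endothelium and other cells were not analysed here, because the sources used here give symbols for the 3 genes alone, so the labelled tissue was not checked against its markers either.

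No member passed the test between bulls and steers. LPL was at 88.3, 99.3 and 134.0 CPM in Bull 20, Bull 22 and Bull 23, and at 202.5, 160.7 and 71.8 CPM in Steer 439, Steer 456 and Steer 458. CD36 was at 270.6, 173.8 and 258.1 CPM in the bulls and at 143.4, 198.2 and 156.4 CPM in the steers, in the same order. FABP3 was at 335.8, 205.7 and 303.6 CPM in the bulls and at 406.7, 111.2 and 248.3 CPM in the steers. The groups overlapped in each of the 3 genes, through Steer 458 in LPL, through Bull 22 and Steer 456 in CD36, and on both sides in FABP3, where the highest and the lowest animal were both steers. Of all 12769 tested genes, 30.6% had groups that did not overlap in CPM.

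**Figure D1:**
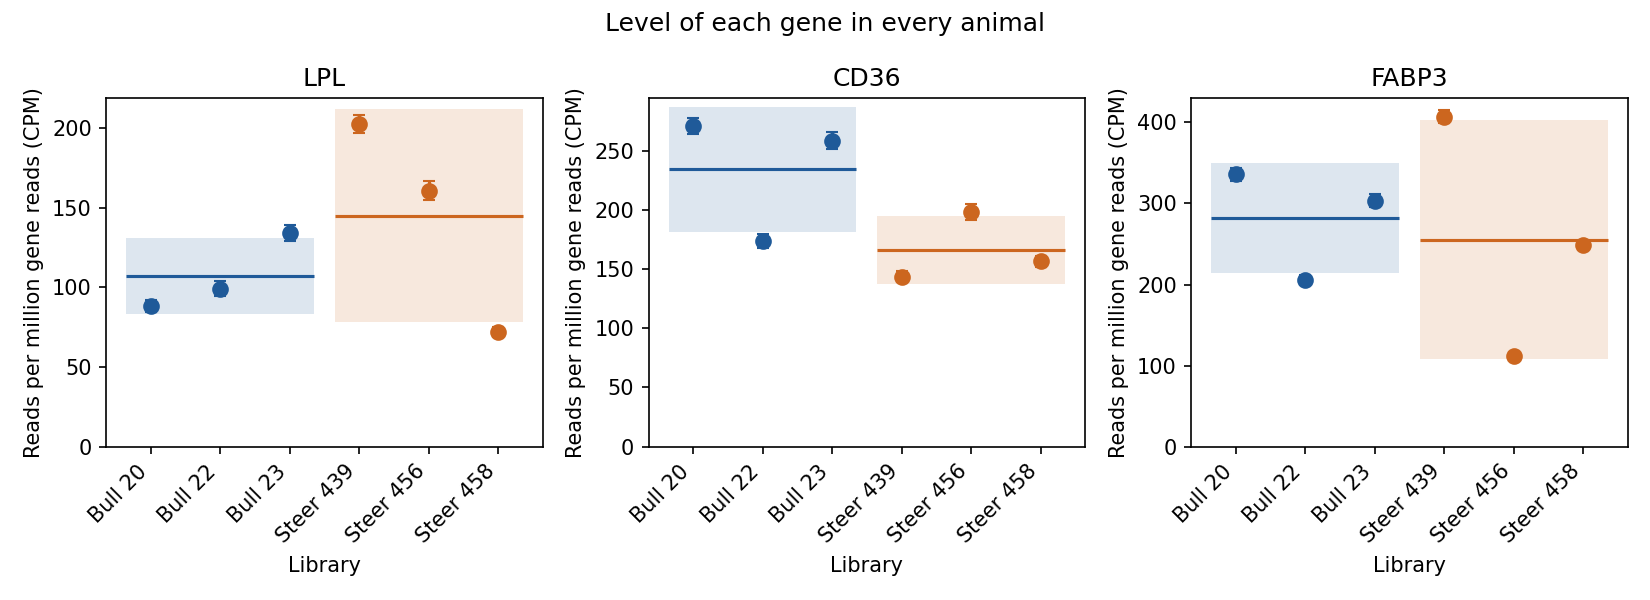
Level of LPL, CD36 and FABP3 (vertical axes, CPM) in each of the 6 libraries (horizontal axes), with bulls in blue and steers in orange. Points carry exact 95% binomial intervals for counting error, lines are group means and shaded bands are ± 1 SD over 3 animals. The groups overlap in every panel, and FABP3 spans 111.2 to 406.7 CPM within the steers.

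The mean of LPL, the enzyme at the capillary wall, was 107.2 ± 23.9 CPM in bulls and 145.0 ± 66.8 CPM in steers (SD, n = 3). The log2 fold change, coded bull minus steer, was -0.50 ± 0.33 (SE; edgeR quasi-likelihood test, adjusted p = 0.419 over all tested genes). Its 95% interval ran from -1.26 to 0.26, which spans a bull level between 0.417 and 1.19 times that of steers. Steer 458, with the lowest LPL level of all 6 animals, sat below the 3 bulls, while the other steers sat above them. Without Steer 458 the log2 fold change was -0.81 (edgeR unadjusted p = 0.0116, adjusted p = 0.135), and without Steer 439, the highest animal, it was -0.22 (adjusted p = 0.713). Over the 14 other fits described below, the adjusted p of LPL lay between 0.135 and 0.713. Within the steers, LPL stood in the order of age, with the oldest animal highest and the youngest lowest. CD36 and FABP3 did not follow that order, and the 3 bulls, younger than every steer, were above Steer 458 in LPL. Any relation of LPL to age was not tested, with 3 steers and bulls of a single age.

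CD36, the membrane step, had the higher mean in bulls, at 234.2 ± 52.7 CPM, while that of steers was 166.0 ± 28.6 CPM (SD, n = 3). The fitted difference was 0.41 ± 0.24 log2 units (SE; edgeR adjusted p = 0.350), with a 95% interval from -0.13 to 0.96, which spans a bull level between 0.915 and 1.94 times that of steers. Bull 20 and Bull 23 were above all 3 steers, and their exact 95% counting intervals overlapped. Bull 22 was below Steer 456 in CPM and above the other steers, but with the TMM scaling of the fit it was also below Steer 458 (170.4 against 176.1 scaled CPM). Without Bull 20, the highest animal, the log2 fold change was 0.26 (edgeR adjusted p = 0.742), and without Steer 456 it was 0.50 (adjusted p = 0.193). The adjusted p ranged from 0.193 to 0.742 over the 14 other fits.

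FABP3, the cytosolic carrier, had nearly the same mean in both groups, with 281.7 ± 67.8 CPM in bulls and 255.4 ± 147.9 CPM in steers (SD, n = 3). The fitted difference between bulls and steers was 0.041 ± 0.45 log2 units (SE; adjusted p in edgeR 0.967). The 95% interval was wide, from -0.98 to 1.06, so a bull level anywhere between 0.507 and 2.09 times that of steers lies within it, and similar levels in the groups are not shown. The value rested on single animals. Without Steer 456, which had 1894 FABP3 reads against at least 3954 in any other library, the log2 fold change was -0.34 (adjusted p = 0.441). Without Steer 439 it was 0.49 (adjusted p = 0.5004), and without Bull 20 it was -0.13 (adjusted p = 0.934). Across the 14 other fits the adjusted p lay between 0.441 and 0.992.

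Thus 0 of the 3 genes passed at an adjusted p under 0.05 in edgeR, against 4.10% of all tested genes, and a count of 0 among 3 is near that background and says nothing particular about these genes. At an unadjusted p under 0.05 the count was also 0 of 3, against 22.4% of all tested genes. DESeq2 called 0 of 3 as well, against 11.8% of all tested genes. limma voom called 0 of 3 without and with weights per group, against 3.36% and 3.62%. With 1 animal left out the edgeR test also called 0 of 3, and the share of all tested genes called ranged from 0.0531% without Bull 22 to 7.77% without Steer 456, so in some of these fits hardly any gene passed. The median log2 fold change of the 3 genes was 0.041, beside -0.0087 over all tested genes, and their median absolute log2 fold change was 0.41, beside 0.34. The directions of LPL (lower in bulls) and CD36 (higher in bulls) were the same under all 4 scalings tried and in each fit that left out 1 animal, although in none of them did either pass.

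**Figure D2:**
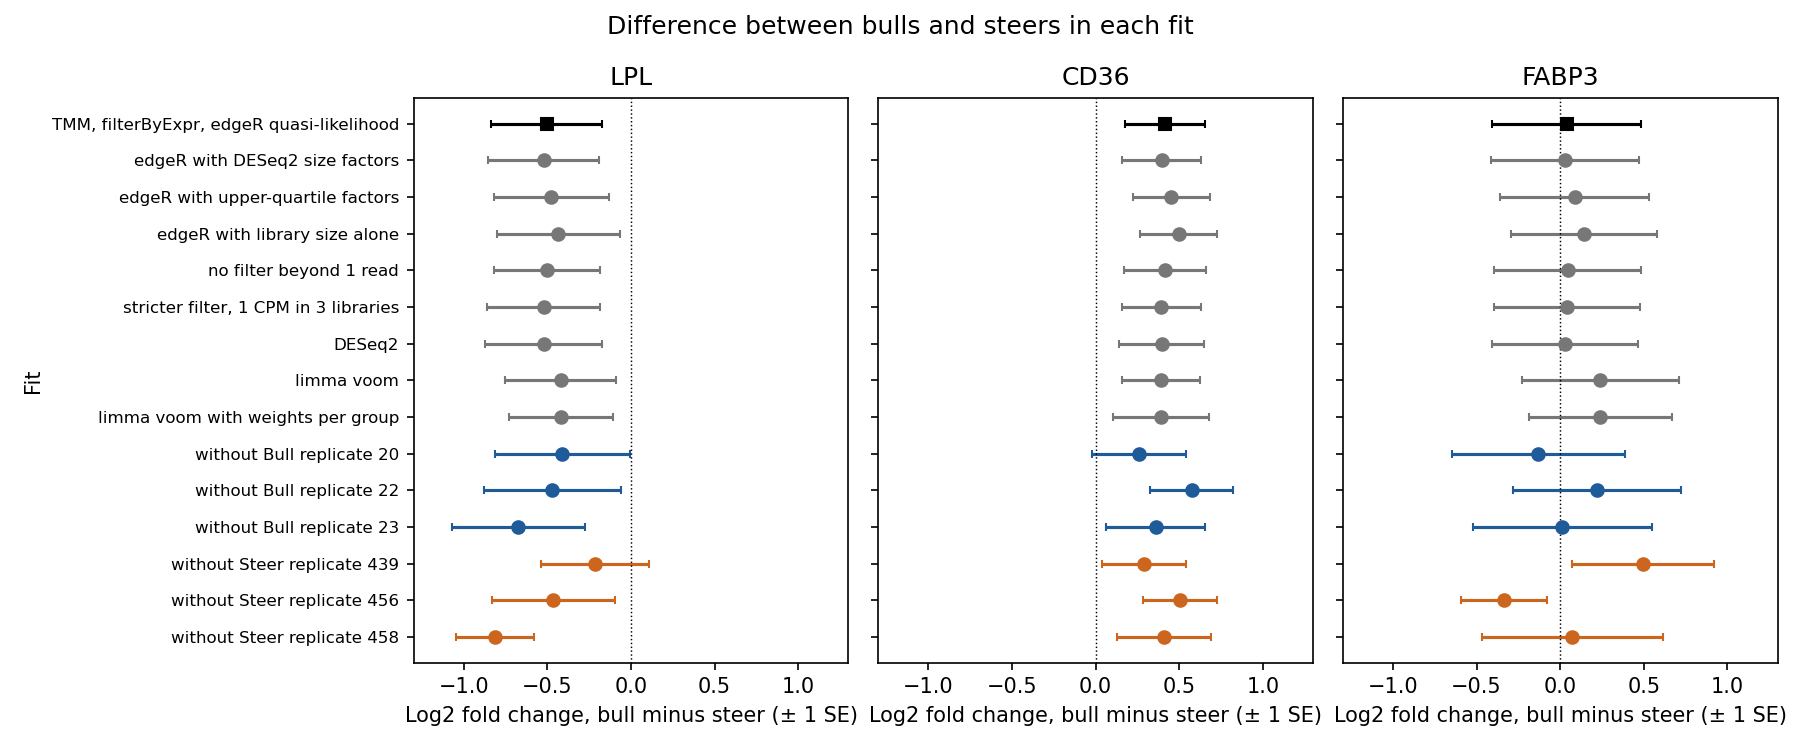
Log2 fold change, bull minus steer (horizontal axes, bars ± 1 SE), of each gene in the reported fit (black square), in fits with other settings (grey) and without 1 bull (blue) or 1 steer (orange). LPL stays below 0 and CD36 above 0 in every fit shown, while FABP3 moves from -0.34 without Steer 456 to 0.49 without Steer 439.

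The 3 genes ranked the animals differently. From high to low, LPL gave Steer 439, Steer 456, Bull 23, Bull 22, Bull 20 and Steer 458, with no overlap of counting intervals between neighbours. CD36 gave Bull 20, Bull 23, Steer 456, Bull 22, Steer 458 and Steer 439, with Bull 22 and Steer 458 exchanged under TMM scaling. FABP3 gave Steer 439, Bull 20, Bull 23, Steer 458, Bull 22 and Steer 456. Under TMM scaling Bull 23 and Steer 458 were nearly level in FABP3 (282.2 against 279.5 scaled CPM). Steer 439 was thus the highest animal for LPL and FABP3 and the lowest for CD36. Steer 456 was the second highest for LPL and the lowest for FABP3, and Bull 20 was the highest for CD36 and the fifth for LPL. Between neighbours in these orders the level differed by up to 1.85-fold, the largest step being that from Bull 22 down to Steer 456 in FABP3.

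Ratios of reads within a library need no scaling factor and show how a pair of genes shifted against each other. Levels of different genes were not ranked, since transcript lengths were not used here. CD36 had 3.06, 1.75 and 1.93 reads per LPL read in Bull 20, Bull 22 and Bull 23, and 0.708, 1.23 and 2.18 in Steer 439, Steer 456 and Steer 458. The log2 ratio was 1.12 ± 0.43 in bulls and 0.31 ± 0.81 in steers (SD, n = 3), a difference of 0.81 (exact 2-sided permutation p = 0.3, adjusted over the 3 ratios 0.6). Steer 458 lay among the bulls in this ratio, above Bull 22 and Bull 23, so the groups overlapped. The difference was 0.41 without Steer 439 and 1.22 without Steer 458.

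FABP3 had 3.80, 2.07 and 2.26 reads per LPL read in the bulls and 2.01, 0.692 and 3.46 in the steers. The difference of the log2 ratios was 0.63 (exact 2-sided permutation p = 0.4, adjusted 0.6), since bulls averaged 1.39 ± 0.47 and steers 0.75 ± 1.18 (SD, n = 3). It was -0.012 without Steer 456, 0.36 without Bull 20 and 1.15 without Steer 458. With 3 animals in each group such a test has 0.1 as its smallest possible p, so no ratio could have passed 0.05.

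The ratio of FABP3 to CD36, the carrier to the membrane protein, was nearly constant among the bulls and not among the steers. There were 1.24, 1.18 and 1.18 FABP3 reads per CD36 read in Bull 20, Bull 22 and Bull 23, and 2.84, 0.561 and 1.59 in Steer 439, Steer 456 and Steer 458. The SD of the log2 ratio was 0.042 over the bulls, near the 0.029 that counting error alone gives, and 1.18 over the steers. The means, 0.26 in bulls and 0.45 in steers, differed by -0.18 (exact 2-sided permutation p = 0.7, adjusted 0.7), and the difference was 0.35 without Steer 439 and -0.82 without Steer 456. The bulls differed 1.56-fold in CD36 and 1.63-fold in FABP3 between the highest and the lowest animal, so both genes moved in step in them, with Bull 20 highest and Bull 22 lowest. Among the other 883 tested genes with a mean CPM at least that of LPL, 0.227% had a ratio to FABP3 with a smaller SD over the bulls, and 0.680% had one to CD36. In steers these shares were 77.1% and 97.6%. Without Steer 456, the SD over the remaining 2 steers was 0.59 and the shares were 62.1% and 91.3%. The other pairs were not constant in bulls. There the shares were 71.6% to CD36 and 82.1% to LPL for CD36 to LPL. For FABP3 to LPL they were 75.1% to FABP3 and 88.0% to LPL. Attention was drawn to the constancy of FABP3 to CD36 by the values themselves, as the narrowest pair in bulls. The genes are not independent of one another, and the difference in spread between the groups was not tested.

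**Figure D3:**
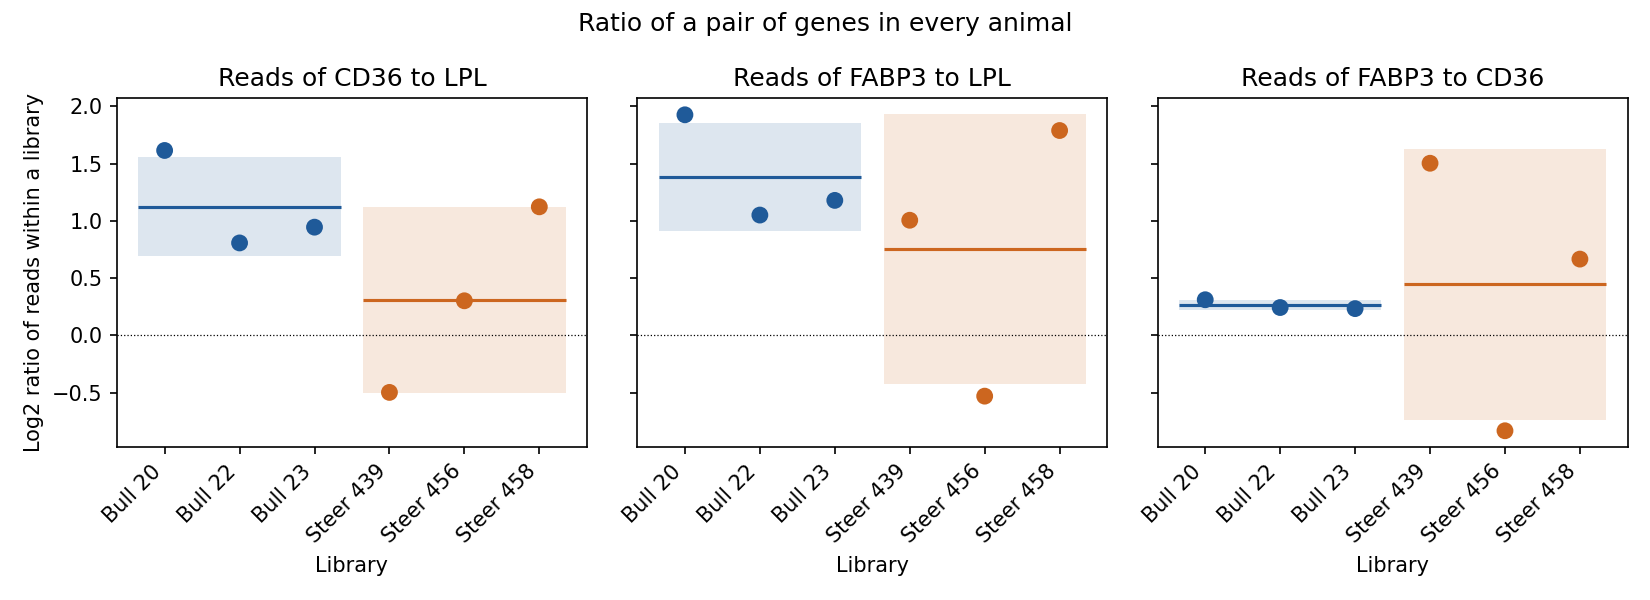
Log2 ratio of the reads of 2 genes within each library (vertical axis, shared by the panels) for the 3 pairs, with bulls in blue and steers in orange. Lines are group means and bands ± 1 SD over 3 animals. The bulls lie within a narrow band in the FABP3 to CD36 ratio (SD 0.042), and the steers spread over an SD of 1.18, or 0.59 without Steer 456.

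Spread between the animals of a group also differed between the genes. On the log2 scale (CPM with TMM factors, prior count 2), LPL had an SD of 0.25 over bulls and 0.69 over steers, and FABP3 had 0.38 and 1.002. Over all 3 steers both thus had the larger SD in steers, by 2.73 and 2.66 times, as had 80.4% of all tested genes. For FABP3 this rested on Steer 456, without which the SD over the remaining 2 steers was 0.40, or 1.05 times that of bulls. For LPL it was 0.95 without Steer 456, or 3.76 times that of bulls. The LPL spread in steers lay largely with Steer 458, at 6.34 log2 CPM, against 7.68 in Steer 439 and 7.27 in Steer 456. The bulls ran from 6.47 to 6.96 log2 CPM in LPL. CD36 went the other way, with an SD of 0.35 over bulls and 0.20 over steers, with or without Steer 456. Its larger SD in bulls rested on Bull 22, at 7.41 log2 CPM, against 8.09 in Bull 20 and 7.91 in Bull 23. SDs without Steer 458 or without a bull were not computed. The share of all tested genes with the larger SD in steers was 59.1% without Steer 456. Without that animal, such a share sets an SD over 2 steers against an SD over 3 bulls. It is not directly comparable with the share over all 3 steers. Among the 884 tested genes with a mean CPM at or above that of LPL, 90.05% had the larger SD in steers (60.7% without Steer 456). Their median SDs were 0.15 over bulls and 0.42 over steers (0.20 over the 2 steers left without Steer 456). In that set, 12.9% had a smaller SD over steers than CD36 (49.8% without Steer 456), and 88.9% had a smaller SD over bulls. FABP3 lay high in both groups, with 94.2% of the set below it in steers (78.1% without Steer 456) and 91.3% in bulls. From the lowest to the highest animal, CPM differed 2.82-fold in LPL, 1.89-fold in CD36 and 3.66-fold in FABP3. An SD over 3 animals is itself imprecise, and these differences in spread were not tested.

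**Figure D4:**
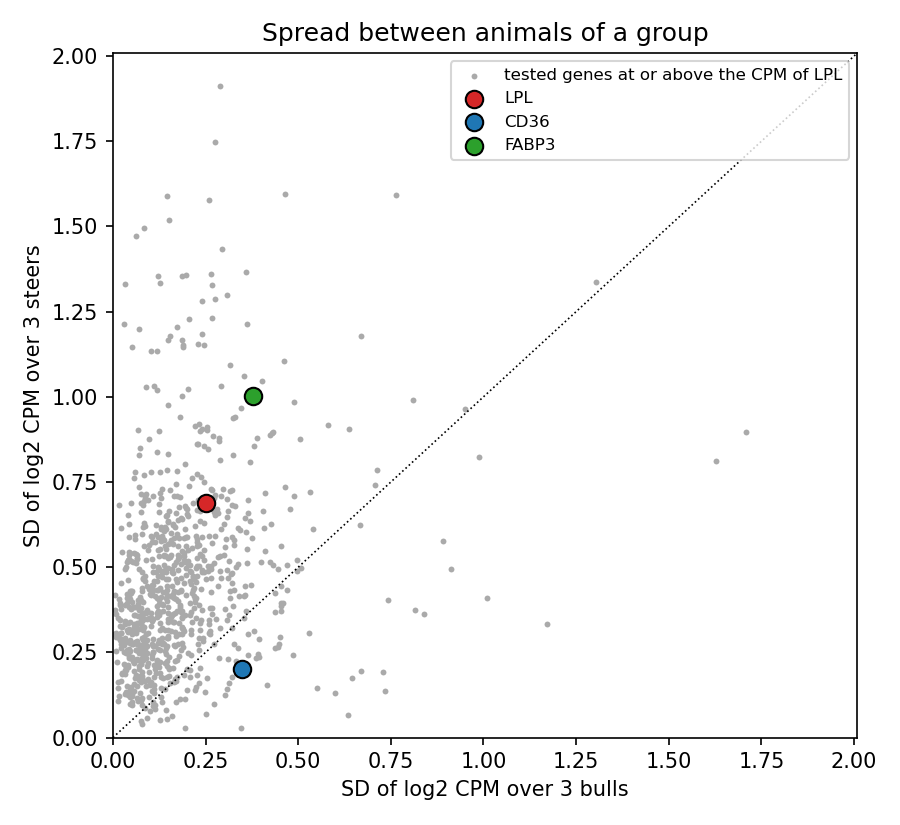
SD of log2 CPM over the 3 bulls (horizontal axis) and over the 3 steers (vertical axis) for the 884 tested genes with a mean CPM at or above that of LPL, with the 3 genes marked. Genes above the dotted line of equality vary more among steers. LPL (0.25 and 0.69) and FABP3 (0.38 and 1.002, the latter 0.40 without Steer 456) lie above it and CD36 (0.35 and 0.20) lies below it.

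The tested gene with the most alike profile was sought for each member among 8641 genes with a mean of at least 5 CPM. Likeness was the root mean square difference of log2 CPM over the 6 libraries, after each gene had been centred on its own mean. For LPL it was ENSBTAG00000017189, at a difference of 0.073 log2 units, where the median gene was at 0.59. This gene had 5.10 ± 1.17 CPM in bulls and 6.68 ± 2.73 CPM in steers (SD, n = 3). It had between 88 and 224 reads per library, so its own counting error was 6.68% to 10.7%, larger than the difference that ranks it first. For CD36 it was ENSBTAG00000014807, at 0.098 log2 units against a median of 0.43. It had 43.05 ± 6.19 CPM in bulls and 29.1 ± 5.88 CPM in steers (SD, n = 3; log2 fold change 0.48 ± 0.20 SE, edgeR adjusted p = 0.203). For FABP3 it was ENSBTAG00000002706, at 0.15 log2 units against a median of 0.66, with 11.1 ± 1.33 CPM in bulls and 10.8 ± 6.28 CPM in steers (SD, n = 3). Its values ran from 5.05 CPM in Steer 456 to 17.5 CPM in Steer 439. These genes were picked for their likeness, so any extreme they share with a member is fixed by the choice. Counting the nearest gene itself, 2 genes lay within 2 times its distance for LPL, 81 for CD36 and 109 for FABP3. The sources used here give no symbol for these IDs.

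The members were not close to one another on this measure. CD36 and LPL differed by 0.67 log2 units. Of the 8641 genes, 87.1% were nearer to CD36 than LPL was, and 70.9% were nearer to LPL than CD36 was. FABP3 and LPL differed by 0.80 log2 units, with 71.8% of the genes nearer to FABP3 and 88.1% nearer to LPL. FABP3 and CD36 differed by 0.69 log2 units, with 55.9% of the genes nearer to FABP3 and 88.4% nearer to CD36, in spite of their constant ratio among the bulls. The measure grows with the size of a gene's changes between libraries, so genes that vary widely lie far from nearly level genes too. These shares therefore do not tell whether the members rise and fall together less than most genes do. Within the steers, the 3 genes gave 3 different orders of the animals.

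**Figure D5:**
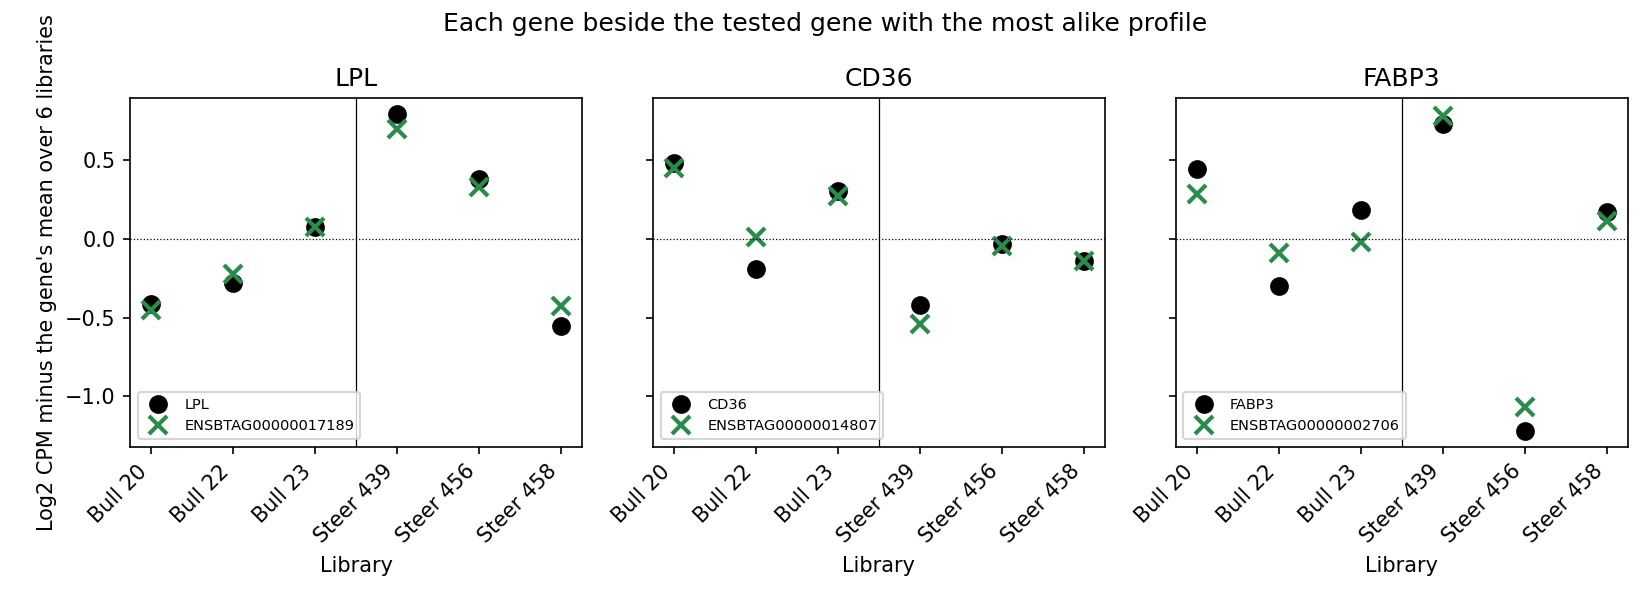
Log2 CPM minus the gene's own mean over the 6 libraries (vertical axis) for each member (black circles) and the tested gene with the most alike profile (green crosses), with bulls left and steers right of the line. The nearest gene follows LPL within 0.073 log2 units, CD36 within 0.098 and FABP3 within 0.15 (root mean square), a likeness for which these genes were chosen.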

How the data were processed

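The authors deposited raw read counts per Ensembl gene, 1 table per animal, with no normalization. TopHat2 2.0.2, HTSeq 0.5.3p3, FastQC and genome build UMD3.1 are named in the submitters' processing notes, and neither strand setting nor annotation release is given in the sources used here. The 5 summary rows, 29.3% to 39.9% of all counted lines, were left out of library sizes and tests. In the RefSeq table supplied (ARS-UCD2.0) no other gene overlaps LPL, CD36 or FABP3. The counts were made on UMD3.1, so overlap among the counted Ensembl genes was not checked. The RefSeq table holds no Ensembl ID, so 38 other genes of fatty acid handling and 38 cell type markers, listed by symbol, could not be tested. No sequences or coordinates are given. The members' symbols come from the definition of the gene set.

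Bulls and steers were compared in 1 fit of all 6 libraries with edgeR 4.0.16 in R 4.3.3 (TMM factors, filterByExpr, robust quasi-likelihood F test, Benjamini-Hochberg adjustment over 12769 genes). Standard errors were obtained by dividing the absolute log2 fold change by the root of F. Ratios used a prior count of 0.5 and exact permutation tests. Alternatives were other scalings and filters, DESeq2 1.42.0, limma 3.58.1 and leaving out each animal. All members were named, and for each the most alike gene with a mean of at least 5 CPM. Members and lists were chosen with earlier results of these data known. Each animal is 1 replicate. Intervals of levels in single libraries cover counting error only, and no molecular identifiers are described. Those of the fold changes come from the fit and include the spread between animals.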

Additional observations from a re-analysis of the deposited data

How the results depend on the processing

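With other scalings, filters and tools, the log2 fold change lay between -0.52 and -0.42 for LPL, 0.39 and 0.50 for CD36 and 0.029 and 0.24 for FABP3, and no member passed in any of the 14 alternatives, in which the edgeR test called between 7 and 1019 of all tested genes and DESeq2 1507. With 1 animal left out, the ranges were -0.81 to -0.22 for LPL, 0.26 to 0.57 for CD36 and -0.34 to 0.49 for FABP3. FABP3 changed sign without Bull 20 (-0.13) and without Steer 456 (-0.34). The difference of the log2 ratio ranged from 0.41 to 1.22 for CD36 to LPL, from -0.012 (without Steer 456) to 1.15 for FABP3 to LPL, and from -0.82 to 0.35 (without Steer 439) for FABP3 to CD36; a prior count of 2 left the sign of each in place. The cause of these changes was not tested. The alternatives for the list of 38 other genes of fatty acid handling were not run, because no symbol could be matched. No paired analysis was possible because nothing in the labels pairs a bull with a steer. Leaving Steer 456 out of the SDs was chosen after seeing the data, and no other animal was left out of them. With at least 1894 reads per gene and library, counting error was small beside each gene's spread between the animals of a group. The precision of the group differences was thus set by 3 animals in each group. For the FABP3 to CD36 ratio in bulls counting error was not small, at 0.029 against an SD of 0.042.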
